A study of Macaca fascicularis with 2 samples.

Results

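The cells compared here were chondrocyte-like cells of a single cDNA library, split by their reads of *SMO*. *SMO* encodes Smoothened, the membrane protein that passes the hedgehog signal on into the cell. Cells with at least 50 *SMO* reads per 1000000 reads of the cell (rpm) were called *SMO*-high, and cells without an *SMO* read were called *SMO*-negative. Both groups were therefore chosen by the measured *SMO* level, and cells were called chondrocyte-like from *KRT19* below 5 reads, since *KRT19* marks notochordal cells (NCs). By this rule, 950 cells were *SMO*-high and 3609 were *SMO*-negative, of 5311 chondrocyte-like cells and of 5723 cells in the library. Inside the study's limits of 200 to 9000 genes and under 5% mitochondrial reads, 948, 3592 and 5290 cells were left.

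The library pooled nucleus pulposus (NP) cells and articular cartilage (AC) cells from 2 wild-type male cynomolgus monkeys, both 3 years old and untreated. The labels name 3 tissue samples in the pool, which the study describes as AC and NP of 1 animal and AC of the other. However, the cells carry 4 hashtags, A951 to A954, and no source used here pairs a hashtag with a tissue. The hashtags were not alike in make-up. Cells with at least 5 *KRT19* reads were 76 of 997 under A951, 271 of 1132 under A952, 6 of 1383 under A953 and 10 of 2162 under A954. *SMO*-high and *SMO*-negative cells were sorted and sequenced together and differ by no treatment. Because there was 1 library, no test between the groups was possible. Intervals are exact 95% intervals that cover counting error only, and since reads were not collapsed to molecules, PCR copies make the intervals of levels too narrow. The value under each hashtag is given as a second view of the spread, although the hashtags are not replicates of a condition.

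In the hedgehog pathway, a ligand such as sonic hedgehog binds Patched, with CDON and BOC as co-receptors, and frees Smoothened to act at the primary cilium. SUFU and kinases then release their hold on the GLI transcription factors, which switch on *GLI1*, *PTCH1* and *HHIP*. These targets serve as a readout of the signal, and *PTCH1* and *HHIP* also restrain it. In the growth plate the pathway controls chondrocyte proliferation and hypertrophy, and in the young NP the notochordal cells are a source of the ligand. The comparison asks whether cells in which the transducer was abundant also held more of the readout, or differed in other genes.

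*SMO*-high cells made up 17.9% of the chondrocyte-like cells (948 of 5290, exact interval 16.9 to 19.0%), and *SMO*-negative cells 67.9%. The remaining 14.2% had an *SMO* read but fewer than 50 rpm. The share of *SMO*-high cells was 18.6% under A951, 19.2% under A952, 16.3% under A953 and 18.2% under A954, so the shares were similar, of 171, 164, 223 and 390 *SMO*-high cells in that order. Their median was 42 *SMO* reads, or 172.6 rpm, and the level ran from 50.1 to 1651 rpm. The 3 cells just outside the limit had 49.19, 49.23 and 49.40 rpm, and the 3 just inside had 50.08, 50.29 and 50.34 rpm, which is a continuous range and not a gap. An *SMO*-negative cell is a cell in which no *SMO* read was captured, not one shown to lack the transcript.

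Depth differed between the groups before matching. *SMO*-high cells had a median of 4112 genes and 232394 reads, and *SMO*-negative cells 3575 genes and 179710 reads. Each *SMO*-high cell was therefore paired with the *SMO*-negative cell of the same hashtag nearest in genes detected, which gave 944 pairs with a median of 4105.5 and 4104 genes and of 231602 and 229857 reads. A953 gave 223 pairs, A954 390, A951 171 and A952 160. All levels below are pooled rpm over these pairs, log2 ratios are *SMO*-high over *SMO*-negative, and 9637 genes with a read in at least 10% of the paired cells were compared.

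Both groups carried the markers of chondrocytes. *COL2A1*, the main collagen of cartilage, had a read in every cell of both groups, with 22040 rpm in *SMO*-high and 19917 rpm in *SMO*-negative cells. *ACAN*, the aggrecan core protein, had 4121 and 3888 rpm, and *BGN*, a small proteoglycan, 12327 and 11607 rpm. Defining markers of other cells were low on both sides, apart from bone genes. The defining endothelial gene *CDH5* had 0.19 and 0.19 rpm, the pan-leukocyte gene *PTPRC* 0.42 and 0.53 rpm, and the notochordal factor *TBXT* 0.58 and 1.69 rpm, of which a single cell held 59.3% of the *SMO*-negative reads. Summed over the listed genes, notochordal markers had 36.2 and 44.2 rpm, mostly *NCAM1*, and immune markers 24.3 and 21.9 rpm, mostly *CD68*. Endothelial markers summed to 162 and 138 rpm, of which *ERG* made up 159 and 135 rpm, and mural markers to 101 and 125 rpm, of which *TAGLN* made up 86.3 and 110 rpm. The 6 notochordal genes compared had a median log2 ratio of -0.53, with 2 at least 2-fold lower and 1 above 0. Across all genes compared, 0.747% were at least 2-fold lower. The 4 mural genes compared had a median of -0.62, with 1 at least 2-fold higher, against 1.12% of all genes compared. Under A953 the 2 medians were 0.41 and 0.24. The 7 osteoblast and osteoclast genes had the highest sum, 205 and 280 rpm. Of these, the cathepsin *CTSK* had 143 and 141 rpm, *SOST* 35.8 and 10.1 rpm, and *IBSP*, bone sialoprotein, 7.36 and 99.1 rpm, with 64.5% of the *SMO*-negative reads in 1 cell. *SP7*, the osteoblast factor, had 0.07 and 0.10 rpm. The part of such cells in the results was not tested.

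The hedgehog readout was present in the same share of both groups. *GLI1* had a read in 71.0% of *SMO*-high cells (68.0 to 73.9%) and in 70.3% of *SMO*-negative cells (67.3 to 73.2%). Under the hashtags, the *GLI1* share was 65.5% in both groups for A951, 73.1 against 65.6% for A952, 70.4 against 73.1% for A953 and 72.8% in both for A954. The groups did not separate, and the direction turned between A952 and A953. Most of these cells had few reads, with a median of 2 in *GLI1*-positive cells of both groups, and cells with at least 5 *GLI1* reads were 7.73% of *SMO*-high and 6.46% of *SMO*-negative cells. In the 363 cells with at least 5 *KRT19* reads, whose median was 3854 genes, at least 1 *GLI1* read was found in 65.3% of cells and at least 5 reads in 3.86%. These cells were not paired with the chondrocyte-like cells by genes, so the shares are given side by side only.

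The pooled *GLI1* level was 12.7 rpm (12.3 to 13.2) in *SMO*-high and 9.81 rpm (9.42 to 10.2) in *SMO*-negative cells, a log2 ratio of 0.38. By hashtag the 2 levels were 12.2 and 10.1 rpm for A951, 12.5 and 8.11 rpm for A952, 17.02 and 9.22 rpm for A953, and 10.7 and 10.5 rpm for A954. The level was thus higher under every hashtag, but by 0.02 on the log2 scale under A954, which held the most cells. Without A953 the log2 ratio of *GLI1* was 0.19, whereas it was 0.63 with cells paired by reads and 0.54 without pairing. With cells paired also on immediate early and *ID* genes it was 0.53, but -0.05 under A951. A typical cell did not differ, since the median *GLI1* level per cell was 5.03 rpm in both groups.

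**Figure D1:**
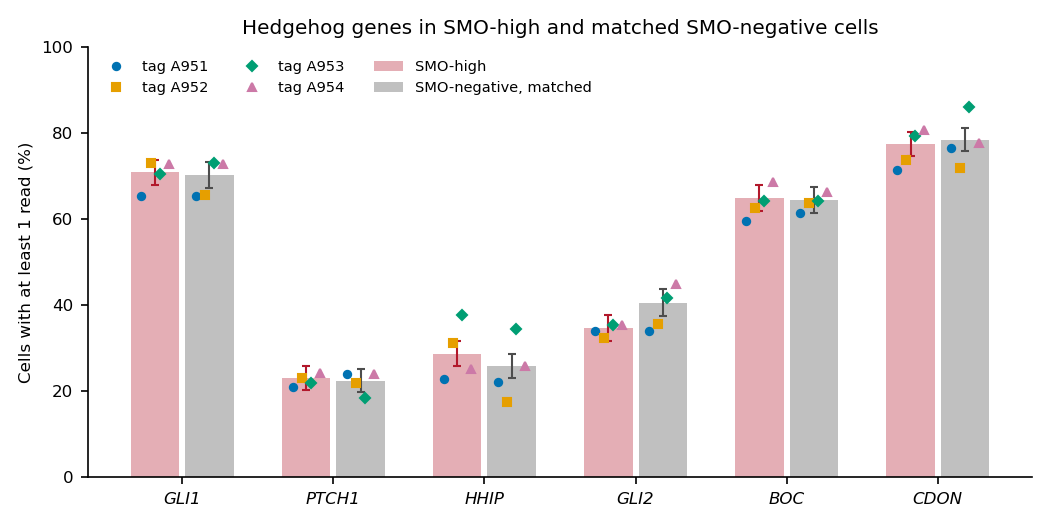
Share of cells with at least 1 read (%) of hedgehog genes in *SMO*-high (red) and paired *SMO*-negative cells (grey). Bars are the 944 cells of each group, error bars exact 95% intervals, and symbols the 4 hashtags. The *GLI1* bars stand at 71.0 and 70.3%, and *GLI2* is the gene with the widest gap, 34.6 against 40.6%.

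*PTCH1*, the receptor that is also a target, likewise had a similar share in both groups. It had a read in 23.0% of *SMO*-high and 22.4% of *SMO*-negative cells, and its pooled level was 10.7 and 7.13 rpm (log2 ratio 0.58). The level by hashtag was 7.17 and 5.27 rpm for A951, 22.8 and 16.0 rpm for A952, 12.6 and 3.42 rpm for A953, and 6.94 and 6.88 rpm for A954. This difference was lost when the same cells were paired by reads in place of genes (log2 ratio 0.01), unlike that of *GLI1*, so it depended on which *SMO*-negative cells were used. *HHIP*, which binds the ligand and blocks it, had a read in 28.7 and 25.8% of cells at a log2 ratio of 0.10, and its ratio was above 0 under A952 only. Reads of *GLI1* and *PTCH1* occurred together in 163 of 944 cells in each group.

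The other response genes were close to level. Of 16 listed response genes, 13 were among the genes counted and 9 were compared. None reached a 2-fold difference, 8 had a log2 ratio above 0, and their median was 0.14. For all genes compared the median was 0.01 and 52.1% had a ratio above 0. Of all genes compared, 1.12% were at least 2-fold higher and 0.747% at least 2-fold lower. *CCND1* and *CCND2*, cyclins of the G1 phase, had log2 ratios of 0.23 and 0.09, the survival gene *BCL2* 0.14, *SNAI1* 0.02 and *PTHLH*, the parathyroid hormone-related peptide, -0.02. With cells paired by reads the median of the list was 0.00925, *CCND1* had -0.30 and *HHIP* -0.13. The response genes not compared were rarely detected. *FOXF1*, *FOXF2*, *NKX3-2* and *MYCN* had a read in at most 9.00% of *SMO*-high cells, and in *NKX3-2* and *MYCN* a single cell held 51.6% and 47.8% of the reads of *SMO*-high cells.

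Ligands were near the lower limit in both groups. *SHH* had a read in 8.90% of *SMO*-high and 8.69% of *SMO*-negative cells at 0.37 and 0.38 rpm, whereas the cells with 5 or more *KRT19* reads had *SHH* at 93.3 rpm. *IHH* and *DHH* had at most 0.09 rpm in either group. Genes for ligand processing and release were measured in both groups, with *HHAT*, which palmitoylates the ligand, at a log2 ratio of 0.16, *DISP1*, which exports it, at -0.07, and *SCUBE1* and *SCUBE3* at 0.22 and -0.31.

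Among the co-receptors, *CDON* was lower in *SMO*-high cells under each hashtag. Its level was 142 and 168 rpm for A951, 118 and 172 rpm for A952, 179 and 225 rpm for A953, and 149 and 163 rpm for A954 in *SMO*-high and *SMO*-negative cells, with a pooled log2 ratio of -0.26. Of all genes compared, 8.2% were lower and 10.1% higher under all 4 hashtags, so a uniform direction alone is common. *BOC* had 107 and 99.6 rpm (log2 ratio 0.10), and *GPC3*, a glypican, and *LRP2* had fewer than 2 rpm in both groups.

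In the transduction machinery, 14 of 17 listed genes were compared, with a median log2 ratio of 0.08 and none at 2-fold. Among all genes compared, 1.12% were at least 2-fold higher and 0.747% at least 2-fold lower. *GLI1*, *EVC2* and *KIF7* had a higher level under all 4 hashtags. *EVC2*, a cilium protein that binds Smoothened, had 22.3 and 18.1 rpm (log2 ratio 0.30) and its partner *EVC* 22.0 and 19.1 rpm (0.20). With cells paired by reads they had 0.01 and -0.16, and with cells paired also on immediate early and *ID* genes *EVC2* had -0.08 under A954. *KIF7*, a kinesin at the cilium tip, had the largest ratio of the list, 0.84, of which 1 cell held 20.3% of the *SMO*-high reads. It was 0.18 with cells paired by reads and 0.43 with cells paired also on immediate early and *ID* genes, where it was -0.77 under A951. The negative regulator *SUFU* had 10.1 and 9.63 rpm (0.06). The kinase subunits *PRKACA* and *PRKACB* had log2 ratios of 0.09 and -0.04, *GSK3B* -0.13 and *CSNK1A1* 0.03, and *GPR161*, *TULP3*, *SPOP* and *BTRC* lay between -0.05 and 0.36. *STK36* was not compared, with a read in 3.39 and 3.60% of cells.

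*GLI2*, the main GLI activator upstream of *GLI1*, had a read in fewer *SMO*-high cells, 34.6% (31.6 to 37.8%) against 40.6% (37.4 to 43.8%). The gap came from A954 (35.4 against 44.9%), A953 (35.4 against 41.7%) and A952 (32.5 against 35.6%), and A951 had 33.9% in both groups. The pooled level went the same way, with 6.42 and 7.74 rpm, but was higher in *SMO*-high cells under A953 (9.57 and 4.50 rpm). The direction of the level depended on the pairing, with a log2 ratio of -0.27 here, 0.52 with cells paired by reads, 0.06 with cells paired also on immediate early and *ID* genes, and 0.13 without pairing. When the cells were thinned to 50000 reads each, the *GLI2* share was 11.8 and 12.1% in 927 pairs.

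**Figure D2:**
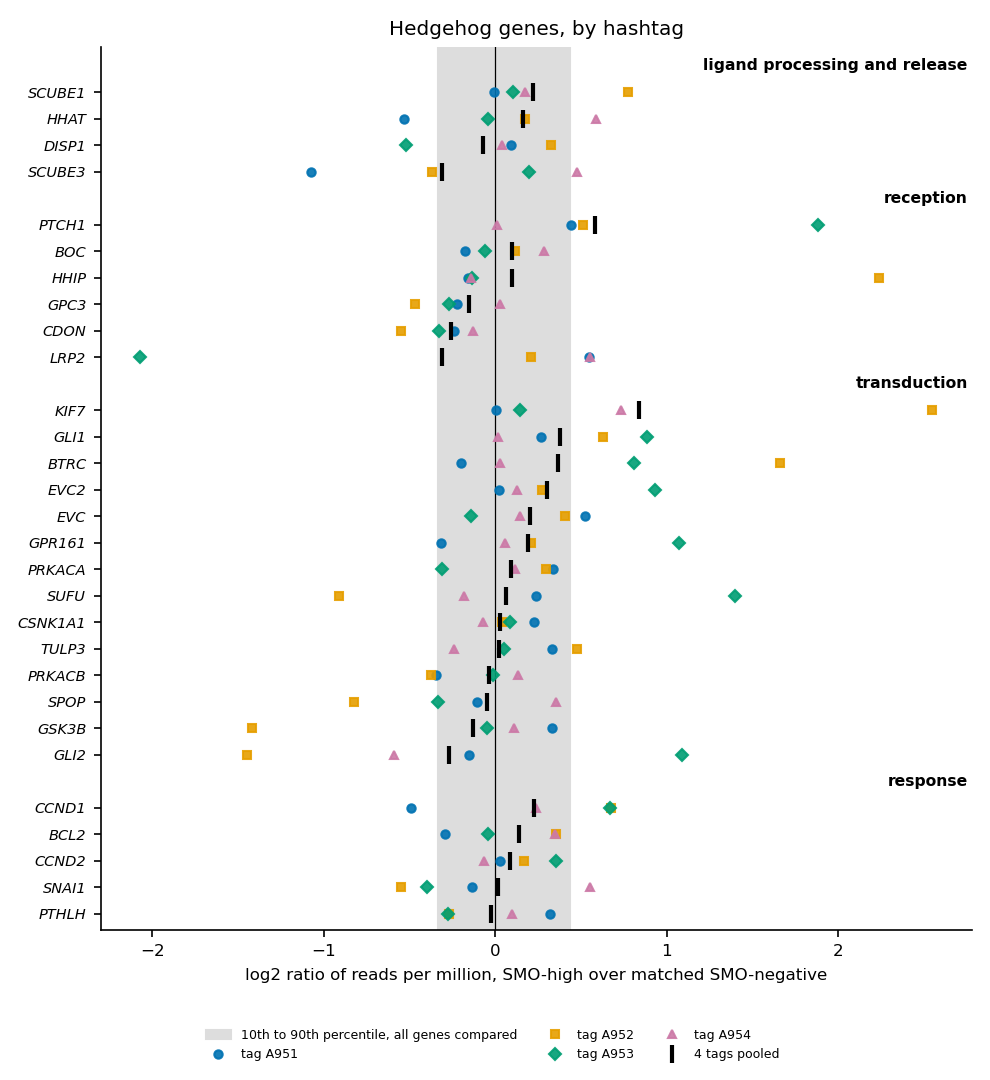
Log2 ratio of pooled rpm, *SMO*-high over paired *SMO*-negative cells, for hedgehog genes compared, by role. Symbols are the 4 hashtags, black ticks the pooled value and the grey band the 10th to 90th percentile of all genes compared (-0.33 to 0.44). All pooled ticks except those of *PTCH1* and *KIF7* lie inside the band.

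The neighbours of *SMO* on its chromosome were measured too. *TNPO3* and *AHCYL2*, on either side in the RefSeq annotation, had log2 ratios of 0.29 and -0.43, and the more distant *SND1* and *NRF1* had 0.15 and 0.32. *NRF1* was higher under all 4 hashtags. With cells paired also on immediate early and *ID* genes *TNPO3* had -0.06, and *NRF1* had 0.17 and was below 0 under A951 and A953. *TSPAN33* and *STRIP2*, also nearby, were read in under 10% of the cells and were not compared. Of 12 primary cilium genes compared, none reached a 2-fold difference, and their median was 0.07. Among all genes compared, 1.12% were at least 2-fold higher and 0.747% at least 2-fold lower. *IFT140* (0.47), *DYNC2H1* (0.36) and *IFT88* (0.20), all of intraflagellar transport, were above 0. *IFT80*, also of intraflagellar transport, was at 0.00 and *OFD1* at 0.01. The ratio of *IFT140* was -0.97 under A951 and 0.16 without A953, and *IFT140* was read in 32.0 against 33.8% of cells.

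When the cells were divided by *SMO* level, the readout followed no order. Each step was paired again with *SMO*-negative cells, so the steps share some of them. The *GLI1* share minus that of the paired cells was -2.95 points in 407 pairs above 0 and under 10 rpm of *SMO*, -2.10 points in 334 pairs up to 50 rpm, 3.73 points in 241 pairs up to 100 rpm, 0.34 points in 291 pairs up to 200 rpm and -1.94 points in 412 pairs from 200 rpm. The pooled *GLI1* level was 17.1 against 8.09 rpm in the last step (log2 ratio 1.08), while its share was lower there. The *GLI2* share was 0.74 points higher in the first step and lower in the other 4 steps, by -8.98 to -3.44 points. Over the steps, the median of the 9 response genes stayed between 0.16 and 0.23.

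**Figure D3:**
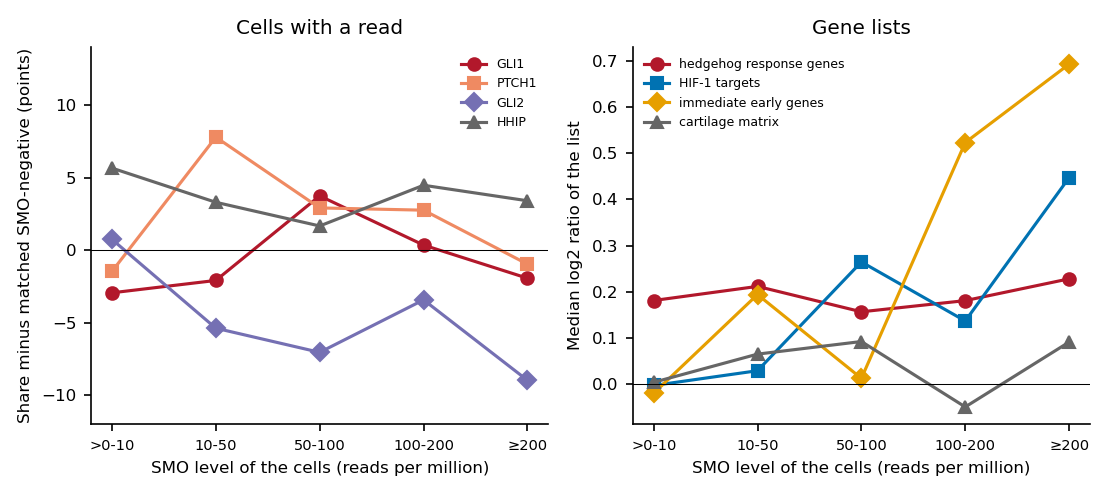
Left, share of cells with a read minus that of paired *SMO*-negative cells (percentage points) for 4 hedgehog genes. Right, median log2 ratio of 4 gene lists, both by the *SMO* level of the cells (rpm). Lines join the 5 steps and no intervals are drawn. *GLI1* lies between -2.95 and 3.73 points, and the HIF-1 targets run from 0.00 in the first step to 0.45 in the last.

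Larger differences lay outside the hedgehog genes. Of the 9637 genes compared, 108 were at least 2-fold higher in *SMO*-high cells and 72 at least 2-fold lower, and 58 and 37 of them kept their direction under all 4 hashtags. Single cells weighed on these counts. In 70 of the 108 and 56 of the 72 genes, 1 cell held at least 10% of the reads of the higher group. With cells paired by reads, 46 of the 108 and 35 of the 72 genes were again past 2-fold, so membership of these lists was not stable. The most extreme genes show this, and were looked up after their values were seen. The chemokine *CXCL1* had 2.28 and 78.4 rpm, with 36.9% of the reads of *SMO*-negative cells in 1 cell and a read in 16.7 and 17.8% of cells. *IBSP*, bone sialoprotein, had 7.36 and 99.1 rpm, with 64.5% in 1 cell.

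**Figure D4:**
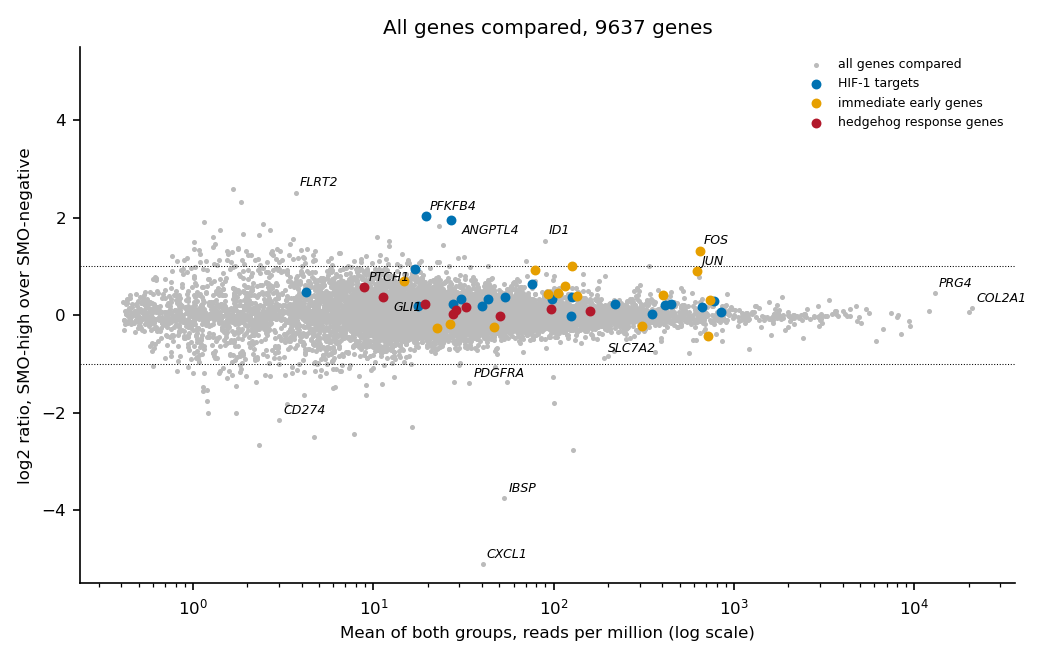
Log2 ratio, *SMO*-high over paired *SMO*-negative cells, against the mean level of both groups (rpm, log scale) for the 9637 genes compared. Dotted lines mark 2-fold. Hedgehog response genes (red) lie between the lines, and of the HIF-1 targets (blue) *PFKFB4* and *ANGPTL4* lie above.

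Among genes without such a dominant cell, and with 1 direction of level under all hashtags and of share, the highest ratios included 2 HIF-1 targets. *PFKFB4*, a regulator of glycolysis, had 31.6 and 3.84 rpm for A951, 34.9 and 6.29 rpm for A952, 49.7 and 9.12 rpm for A953, and 20.1 and 8.62 rpm for A954. The pooled levels were 31.3 rpm (30.6 to 32.0) and 7.62 rpm (7.28 to 7.97), a log2 ratio of 2.04, and 18.6% against 12.6% of cells had a read. The log2 ratio of *PFKFB4* was between 1.78 and 2.11 when cells were paired by reads, paired also on the immediate early and *ID* genes, left unpaired or averaged per cell. *ANGPTL4*, a secreted inhibitor of lipoprotein lipase, had 61.8 and 7.46 rpm for A951, 38.7 and 23.9 rpm for A952, 68.3 and 7.57 rpm for A953, and 23.5 and 9.87 rpm for A954. Its pooled log2 ratio was 1.96, but 0.57 with cells paired by reads and 0.89 without pairing. With cells paired also on immediate early and *ID* genes *ANGPTL4* had 1.19, and -0.28 under A952. Few cells carried either gene, since cells with at least 5 reads were 9.64 and 3.28% for *PFKFB4* and 7.84 and 3.18% for *ANGPTL4*.

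The HIF-1 targets lay slightly above the other genes. HIF-1 is the transcription factor stabilised at low oxygen, and its targets supply glycolysis, acid export and mitophagy in cartilage, which has no vessels. Of 29 listed targets, 21 were compared, 20 had a log2 ratio above 0, 8 were higher under all 4 hashtags, and the median was 0.28. For all genes compared the median was 0.01, 52.1% had a ratio above 0, and 10.1% were higher under all 4 hashtags. Abundant targets differed little, with *ENO1*, an enzyme of glycolysis, at 863 and 825 rpm (log2 ratio 0.07) and *NDRG1* at 701 and 624 rpm (0.17). *BNIP3*, a mitophagy receptor, had 821 and 713 rpm for A951, 783 and 577 rpm for A952, 664 and 450 rpm for A953, and 971 and 854 rpm for A954, higher in *SMO*-high cells within each hashtag, although the 2 ranges overlap. The median of the list was 0.19, 0.25, 0.56 and 0.33 under A951 to A954. *HIF1A* itself was not higher, with 711 and 779 rpm (-0.13), and *VHL* had -0.08 and *EPAS1* 0.13. *ARNT*, the partner subunit of HIF-1, had 17.7 and 11.4 rpm, a log2 ratio of 0.63 that was above 0 under all 4 hashtags. It was 0.20 under A954 and 1.18 without A954. With cells paired also on immediate early and *ID* genes it was 0.36, and -0.01 under A951. By *SMO* step, the median of the targets was 0.00, 0.03, 0.26, 0.14 and 0.45.

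Genes of the early response to stress had a median above that of all genes compared. The immediate early genes are switched on within minutes of a stimulus, tissue dissociation included. Of 16 compared, 11 had a ratio above 0, 9 were higher under all 4 hashtags, and the median was 0.42. Among all genes compared, 52.1% had a ratio above 0 and 10.1% were higher under all 4 hashtags. *FOS* had 978 and 417 rpm for A951, 598 and 468 rpm for A952, 1102 and 119 rpm for A953, and 907 and 450 rpm for A954, a pooled log2 ratio of 1.32. *FOS* was also among the genes picked for a large ratio with 1 direction under all 4 hashtags. *FOSB* had a log2 ratio of 1.01 and *ZFP36*, which speeds the decay of messenger RNA, 0.31, whereas *IER3* had -0.43. The median of the list was 0.60, 0.29, 0.95 and 0.07 under A951 to A954, and so smallest under A954, which held the most cells. The size rested in part on A953. Without A953 the log2 ratio was 0.95 for *FOS*, 0.77 for *FOSB* and 0.13 for *ZFP36*. The median of the list was 0.25 without A953 and 0.71 without A954. All 6 heat shock genes compared had a ratio above 0, with a median of 0.39. *DNAJB1*, a co-chaperone, had 453 and 225 rpm (1.01), *HSPH1* 809 and 467 rpm (0.79), *HSP90AA1* 2084 and 1602 rpm (0.38), *HSP90AB1* 0.27 and *HSPA5* 0.11. With cells paired also on the summed level of immediate early and *ID* genes, the median of the HIF-1 targets was 0.22 with 21 of 21 above 0, and that of the heat shock genes 0.36. That pairing did not level the pooled immediate early genes, whose median was still 0.33 with 11 of 16 above 0, and *FOS* had 1.11. The part of cell handling in these differences was not tested.

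**Figure D5:**
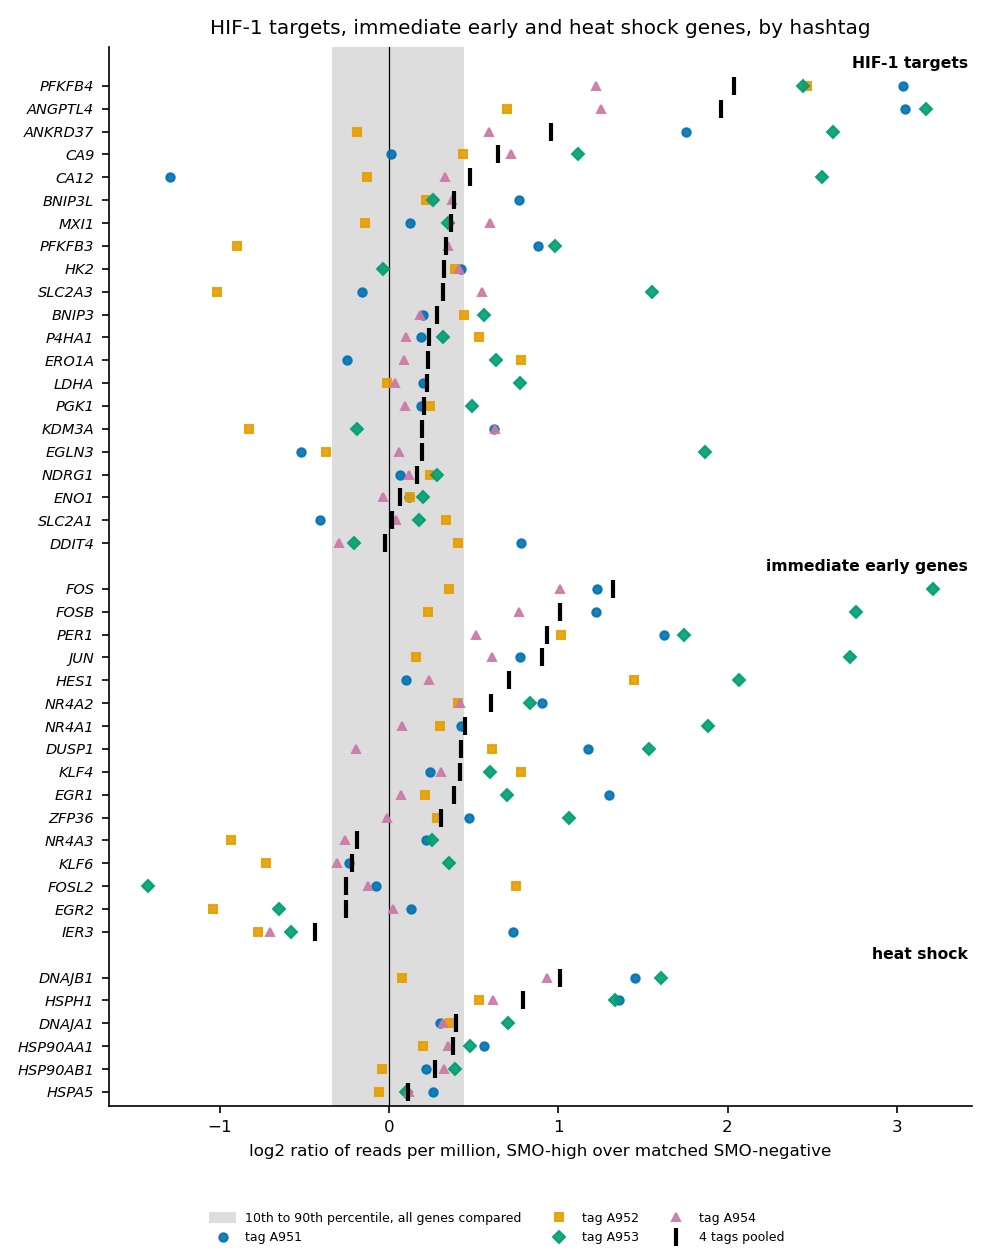
Log2 ratio, *SMO*-high over paired *SMO*-negative cells, of HIF-1 targets, immediate early genes and heat shock genes. Symbols are the 4 hashtags, black ticks the pooled value and the grey band the 10th to 90th percentile of all genes compared. Most ticks lie right of 0, with *PFKFB4* (2.04), *ANGPTL4* (1.96), *FOS* (1.32), *FOSB* (1.01) and *DNAJB1* (1.01) past 1, and A953 often lies farthest right.

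*ID1*, an inhibitor of differentiation factors and a target of BMP signaling, was among the most abundant of the high genes. Its level was 152 and 73.3 rpm for A951, 159 and 39.5 rpm for A952, 129 and 31.9 rpm for A953, and 118 and 45.5 rpm for A954. A higher level under every hashtag was part of the rule that picked *ID1*. The pooled log2 ratio of *ID1* was 1.53, a read was found in 50.5 and 45.9% of cells, and at least 5 reads in 19.7 and 11.2%. With cells paired also on the immediate early and *ID* genes, a sum that holds *ID1* itself, the log2 ratio was 0.95. Over the *SMO* steps its log2 ratio was 0.15, -0.29, 1.04, 1.24 and 2.25. *ID3* had 54.7 and 38.2 rpm, a log2 ratio of 0.52 that was above 0 under all 4 hashtags, 0.68 with that pairing on immediate early and *ID* genes, and 0.29 without A951. *SMAD9*, a receptor-regulated SMAD, had 0.53 and was also higher under all 4 hashtags. In that pairing *SMAD9* had 0.35, with -0.24 under A951 and -0.06 under A954. *ID3* and *SMAD9* were named after their values were seen. The other BMP and *ID* genes lay on either side of 0. *BMP4*, a ligand, had 6.88 and 12.3 rpm (-0.83) but 0.01 without A953. *ID2* had 1725 and 2126 rpm (-0.30), *BMP2* 637 and 708 rpm (-0.15), *GREM1*, a BMP antagonist, 174 and 170 rpm (0.04), and the median of the 13 BMP and *ID* genes compared was 0.04.

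The remaining genes with the highest ratios by this rule were *FLRT2* (2.51), *SOST* (1.83), *FGD1* (1.60), *LRSAM1* (1.52), *BCKDHA* (1.45), *ARVCF* (1.43), *PIAS4* (1.34), *YPEL4* (1.26), *TEF* (1.23), *NELL2* (1.19) and *CD34* (1.14). *SOST*, which encodes the WNT antagonist sclerostin, had 65.7 and 15.8 rpm for A951, 42.8 and 12.8 rpm for A952, 23.5 and 6.50 rpm for A953, and 29.5 and 9.11 rpm for A954, and was read in 12.8 and 8.90% of cells. *BCKDHA*, a subunit of the complex that degrades branched-chain amino acids, had 35.7 and 13.1 rpm. These are genes of few cells, since every one of the 11 except *NELL2* was read in fewer than 25% of the cells of either group, and the log2 ratio of *FLRT2*, an adhesion protein, was 1.11 with cells paired by reads. With cells paired also on immediate early and *ID* genes, *PIAS4* had 5.72 rpm in both groups, and its log2 ratio was 0.38 with cells paired by reads and 0.43 without pairing. In the same pairing *FLRT2* had 1.26, *SOST* 0.90, *FGD1* 0.81, *NELL2* 0.68 and *ARVCF* 0.60, all more than 1.5 times smaller than above.

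In the other direction, *PDGFRA*, the receptor for platelet-derived growth factor found on mesenchymal cells, had 19.0 and 72.9 rpm for A951, 15.7 and 40.8 rpm for A952, 19.7 and 36.3 rpm for A953, and 19.0 and 50.1 rpm for A954. A lower level under every hashtag was part of the rule that picked *PDGFRA*. Its pooled log2 ratio was -1.39, and -1.55 to -1.38 over the other pairings and the mean per cell. The share of cells with a *PDGFRA* read differed less, 25.5 against 28.6%, and under A952 it was higher in *SMO*-high cells (27.5 against 18.1%). *SLC7A2*, a cationic amino acid transporter, had 133 and 246 rpm (-0.89) and was read in 71.1 and 74.8% of cells, with a ratio of -0.01 under A952. The immune checkpoint ligand *CD274* had 1.10 and 4.89 rpm (-2.15). *KCNQ5* (-1.24), *PTPRJ* (-1.14), *LIG1* (-1.12), *NARF* (-1.11), *SUSD1* (-1.07), *DRAM1* (-1.03), *GSAP* (-1.02), *NQO1* (-0.98), *BCLAF3* (-0.97), *MPPE1* (-0.95) and *DMWD* (-0.87) followed, and *MAMLD1* had 10.7 and 21.5 rpm. With cells paired also on immediate early and *ID* genes, *CD274* had a log2 ratio of -0.94, *PTPRJ* -0.33, *GSAP* -0.62 and *BCLAF3* -0.58. With cells paired by reads, *NARF* had -0.05, *SUSD1* -0.46 and *PTPRJ* -0.75. Leaving out A954 gave *MPPE1* -0.23 and *CD274* -1.55, and leaving out A953 gave *NQO1* -0.50.

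The cartilage program differed by small amounts. Of 14 cartilage matrix genes compared, none reached 2-fold. Among all genes compared, 1.12% were at least 2-fold higher and 0.747% at least 2-fold lower, so 2-fold differences were rare anywhere. The median log2 ratio of the list was 0.11, with values of 0.09, -0.11, 0.32 and 0.02 under A951 to A954. *COL2A1* had 0.15, *COL11A1* 0.19, *CHAD*, chondroadherin, 0.01, *FMOD*, fibromodulin, 0.04 and *CNMD*, chondromodulin, 0.23. Without A953 the values of these genes were 0.05, 0.06, -0.03, 0.09 and 0.01 in that order. *HAPLN1*, the link protein of aggrecan, was the 1 gene of the list lower under all 4 hashtags, with 2017 and 2293 rpm (-0.19). Of the small proteoglycans and *MGP*, which mark the chondrocyte-like cells, 3 of 4 were lower under all hashtags, against 8.2% of all genes compared. *MGP*, an inhibitor of calcification, had 4596 and 5275 rpm for A951, 4511 and 5786 rpm for A952, 8271 and 11432 rpm for A953, and 5913 and 6428 rpm for A954 (pooled -0.28). With cells paired also on immediate early and *ID* genes, *MGP* had a log2 ratio of 0.07 under A951. *DCN*, decorin, had 4634 and 5016 rpm (-0.11) and *LUM*, lumican, 237 and 320 rpm (-0.43), whereas *BGN* had 0.09.

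*PRG4*, the lubricin of the superficial zone of AC, was higher under every hashtag at a high level. It had 14329 and 12187 rpm for A951, 14594 and 8319 rpm for A952, 20303 and 14247 rpm for A953, and 12572 and 9598 rpm for A954, with a pooled log2 ratio of 0.46 (0.31 to 0.43 over the other pairings and the mean per cell) and a median per cell of 6395 and 5429 rpm. The other genes of the fibrocartilage and superficial zone list went either way, with *COL3A1* at 0.00, *COL1A2* at 0.43 and *IGFBP6* at -0.47, and 8 of 14 above 0. Of the chondrocyte transcription factors, *SOX9* had 391 and 332 rpm (0.24) and *SOX5* 195 and 157 rpm (0.32), both higher under all 4 hashtags, although *SOX9* had 0.08 without A953. *NFATC2* (0.08), *NFATC1* (0.19) and *RUNX2* (-0.33, and 0.43 without A954) were not uniform. Of the hypertrophy genes, *SPP1*, osteopontin, had 603 and 411 rpm (0.55) with 10.8% of the reads in 1 cell, *PTH1R* 0.12 and *MEF2C* 0.13. Without A953, *PTH1R* had -0.18 and *MEF2C* 0.00. The log2 ratio of *SPP1* was -0.26 with cells paired by reads, -0.13 with cells paired also on immediate early and *ID* genes, and 0.06 without pairing. *ALPL*, alkaline phosphatase, had -2.43 (-1.09 with cells paired by reads), with 1 cell holding 30.1% of the *SMO*-negative reads, and *COL10A1*, the collagen of hypertrophic chondrocytes, was read in 5.40 and 3.07% of cells.

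WNT genes and cell division genes showed no common direction. *FRZB*, a secreted WNT antagonist, had 1864 and 1608 rpm (0.21), *WIF1* 336 and 337 rpm (-0.01) and *SFRP5* -0.12. *AXIN2* and *LEF1*, targets of the canonical pathway, had 0.86 and 0.96, each with more than 10% of reads in 1 cell, and a read in a smaller share of *SMO*-high cells. Of 11 proliferation genes, 5 were detected often enough to be compared, with a median of -0.12, among them *PCNA* (46.9 and 47.0 rpm), *STMN1* (-0.45) and *RRM2* (-0.38). Of these 5, 1 had a ratio above 0, but with cells paired also on immediate early and *ID* genes 4 did and the median was 0.10. *STMN1* then had 0.07 and *RRM2* -0.01, and with cells paired by reads they had 0.21 and 0.07.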

How the data were processed

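Cells were dissociated with Liberase TM, tagged by surface biotinylation and TotalSeq hashtags, sorted as live cells and sequenced by TAS-seq. The authors aligned the reads with HISAT2 2.2.1 and counted them over whole genes with featureCounts 2.0.2 (versions per the submitters' processing notes), with multi-mapping and multi-gene reads kept. The genome build is not given in the sources used here. The deposited values are raw counts of reads per gene and cell without molecular identifiers and without normalization. Near-identical copies and overlapping genes can share reads. Another matrix with 1358 cell columns, which no sample label names, and the tag library were not used here.

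The library held 5723 cells, with a sum of counts from 2.12e+08 to 5.65e+08 reads per hashtag. The 42 doublet and 7 untagged cells were left out by hashtag. Doublets within a hashtag cannot be seen, and no doublet caller was run. *SMO*-high cells were paired 1 to 1 within the hashtag with the nearest *SMO*-negative cell in genes detected, without replacement, at most 5% apart, and 4 cells had no partner. Reads were pooled and scaled to rpm, ratios used a floor of 3 reads per group, and *SMO* was left out. Shares have exact binomial (Clopper-Pearson) and levels exact Poisson 95% intervals, for counting error only. No p-value was computed, because cells of 1 library are not replicates, and no paired analysis of samples was possible.

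Genes named were all members of the hedgehog lists and of the neighbours of *SMO*, except items that are not reported here. Added to these were, in each direction, the 15 genes of largest log2 ratio with the same direction of level under all 4 hashtags and of share and under 10% of the reads of the higher group in 1 cell. From each other list, the 3 members with the most reads and the 2 with the largest ratio were named. A further few genes were named after their values were seen (*CDH5*, *TBXT*, *CXCL1*, *HAPLN1*, *ALPL*, *COL10A1*, *SUFU* and other list members). The members and lists were chosen with earlier results of these data known. Neighbours of *SMO* came from the RefSeq annotation of the assembly T2T-MFA8v1.1, of which only gene order was used. Python 3.11.15, numpy 2.4.6, scipy 1.17.1, pandas 2.3.3 and matplotlib 3.10.9 were used, and the calculations were tested on simulated data. Alternatives were other pairings, *SMO* and *KRT19* limits, no limits on cells, means per cell, thinning to 50000 reads, detection from 5 reads, no filter on detection and each hashtag left out.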

Additional observations from a re-analysis of the deposited data

How the results depend on the processing

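The medians of the hedgehog response genes, HIF-1 targets, cartilage matrix genes and immediate early genes stayed within the range of the 4 hashtags under every alternative run for them. The counts of genes past 2-fold depended on the settings. At least 2-fold higher and lower were 24 and 29 genes without pairing, 20 and 11 with 927 pairs thinned to 50000 reads, 8 and 3 with detection from 5 reads, and 943 and 713 without the filter on detection, against 108 and 72. With *SMO*-high from 200 rpm they were 360 and 190, and from 100 rpm 177 were higher. Leaving out 1 hashtag gave 124 to 249 higher and 90 to 143 lower. The share of *SMO*-high cells was 22.0% from 20 rpm, 13.3% from 100 rpm and 7.79% from 200 rpm, and 17.7 to 18.5% without 1 hashtag. The log2 ratio of *GLI1* was 1.08 from 200 rpm and 0.19 to 0.65 without 1 hashtag. That of *PTCH1* was 0.00925 with cells paired by reads, -0.00815 with cells paired also on immediate early and *ID* genes, and 0.28 to 0.90 without 1 hashtag. The *GLI1* share differed by 9.27 points without pairing, where *SMO*-high cells were deeper, and by -0.77 to 1.66 points without 1 hashtag. Without 1 hashtag the medians were 0.10 to 0.21 (hedgehog response), 0.21 to 0.33 (HIF-1 targets), 0.00 to 0.12 (matrix) and 0.25 to 0.71 (immediate early). No paired analysis was possible because there was 1 library.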
